A study of Mus musculus with 30 samples.

Results

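Primary mouse microglia labelled PD-1 KO were compared after 8 h without amyloid-beta and at 0 h. The comparison rests on 6 RNA-seq libraries, 3 per time, chosen by their condition labels alone from the 30 libraries of the series. The whole series crosses the WT and PD-1 KO labels with a 0 h baseline and with 2 later times, each with or without amyloid-beta, in 10 groups of 3 libraries. Microglia were taken from mouse brains, grown for several days in primary culture and shaken off before use. The labels name the gene knocked out but give no allele, strain or age, and they do not say which medium the untreated 8 h cultures received. Nor do they say that the 3 libraries of a group are separate animals or cultures. The p-values therefore reflect only how much libraries vary within a group, and that variation may be technical. Its estimate was shared over all 30 libraries of the series, WT and amyloid-beta groups included.

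Microglia are the resident macrophages of the brain. They sense damage and microbes through surface receptors, many of which signal to NF-kB, a family of transcription factors held in the cytoplasm by IkB proteins. Once released, NF-kB drives genes for cytokines, chemokines and adhesion molecules, and also genes for its own inhibitors, so that the response is self-limiting. Immediate early genes such as Fos respond sooner and decay fast. PD-1, encoded by Pdcd1, is an inhibitory receptor best known from T cells, and CD274 (PD-L1) is one of its ligands.

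Values are the authors' normalized values, which are read counts per gene after scaling each library by its own size factor, with 1 as the lowest value given. Changes are given as the log2 difference of value plus 1, ± SE, from limma with Benjamini-Hochberg adjusted p-values and a threshold of 0.05. The 6 libraries held between 4883749 and 18118664 reads in the genes of the file, as recovered from the values. Between 35 and 75 of the 13788 genes lay at the floor in each of them, and the floor hid at most 1 read. Pdcd1 (chr1:94038305-94052553, GRCm38.p6) was not absent from the libraries labelled PD-1 KO: its value was 12.4, 7.11 and 9.14 at 0 h, from 13, 5 and 8 reads, and 20.4, 17.7 and 24 at 8 h, from 19, 9 and 45 reads. In the WT libraries it stood at the floor, with 0 recovered reads in each at both times. No file gives the deleted part of the gene, so these reads do not check the label, and the libraries are called by their labels throughout. The 0 h and 2 h libraries carry title numbers from 1707 to 1724 and the 8 h libraries numbers from 1784 to 1795, so that 8 h and the number series cannot be told apart.

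The labelled cell type was borne out by its markers, with other cell types present. Summed over 14 pan-microglia and macrophage markers, the level was 98716, 117155 and 148369 at 0 h and 134299, 109621 and 122092 at 8 h, and no marker passed the test by limma (2 higher and 1 lower at an unadjusted p under 0.05, and 0 by voom). Markers of other cell types were not uniform among the 0 h libraries. The sum of 11 ependymal and motile cilia markers was 6498, 1974 and 1961 at 0 h against 4720, 6686 and 4591 at 8 h, and that of 11 astrocyte markers was 25085, 13230 and 13386 against 17890, 21692 and 18810. The 0 h library with 25085 and 6498 thus stood above the others of its group. Those others lay below every 8 h library in both sums, and below the ependymal sums at 2 h (2800, 5201 and 4335). All 11 ependymal changes were positive at 8 h (median 0.87) and at 2 h (0.49). At 8 h, 9 of 11 astrocyte changes (median 0.29) and 7 of 9 fibroblast and vascular changes (0.63) were positive too. No marker of these lists passed by limma at either time. Positive at 8 h were 6 of 11 oligodendrocyte lineage and 2 of 8 neuronal changes. The third 0 h library stood apart in the summed level of 33 interferon-stimulated genes, with 7812, 8551 and 12423 at 0 h and 9537, 7986 and 8264 at 8 h. Only 1 of the 13 neutrophil, lymphocyte and red cell markers was tested. Fewer cells of a type and less RNA per cell cannot be told apart in such bulk samples.

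**Figure D1:**
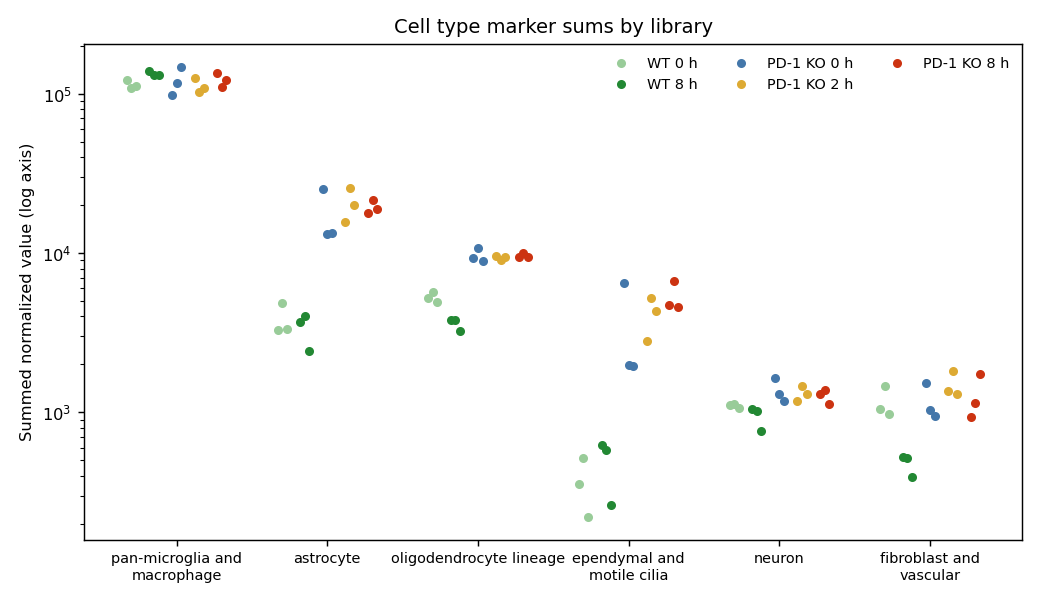
Summed normalized values (log axis) of 6 cell type marker lists in each library, 3 points per group, for WT at 0 h and 8 h and for the PD-1 KO label at 0 h, 2 h and 8 h. The first 0 h library of the PD-1 KO label lies above the other two in the astrocyte (25085) and ependymal (6498) sums, and all WT libraries lie below all PD-1 KO libraries in both.

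In all, 452 of 13722 genes passed the threshold between 8 h and 0 h (3.29%), 206 higher (1.5%) and 246 lower (1.79%). Among them, 48 were over 2-fold higher and 54 over 2-fold lower. The 3 and 3 libraries did not overlap for 446 of the 452, where 17.1% of all genes tested showed no overlap, 7.65% with higher and 9.47% with lower values at 8 h. The median change of all genes was 0.00445. Without the first 0 h library the counts were 343 higher and 262 lower, and 350 of the 452 calls were shared. Leaving out any other of the 6 libraries gave between 125 and 156 higher and between 128 and 183 lower. With only the 6 compared libraries in the fit, the spread was estimated from them alone, and 76 genes were higher and 81 lower.

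**Figure D2:**
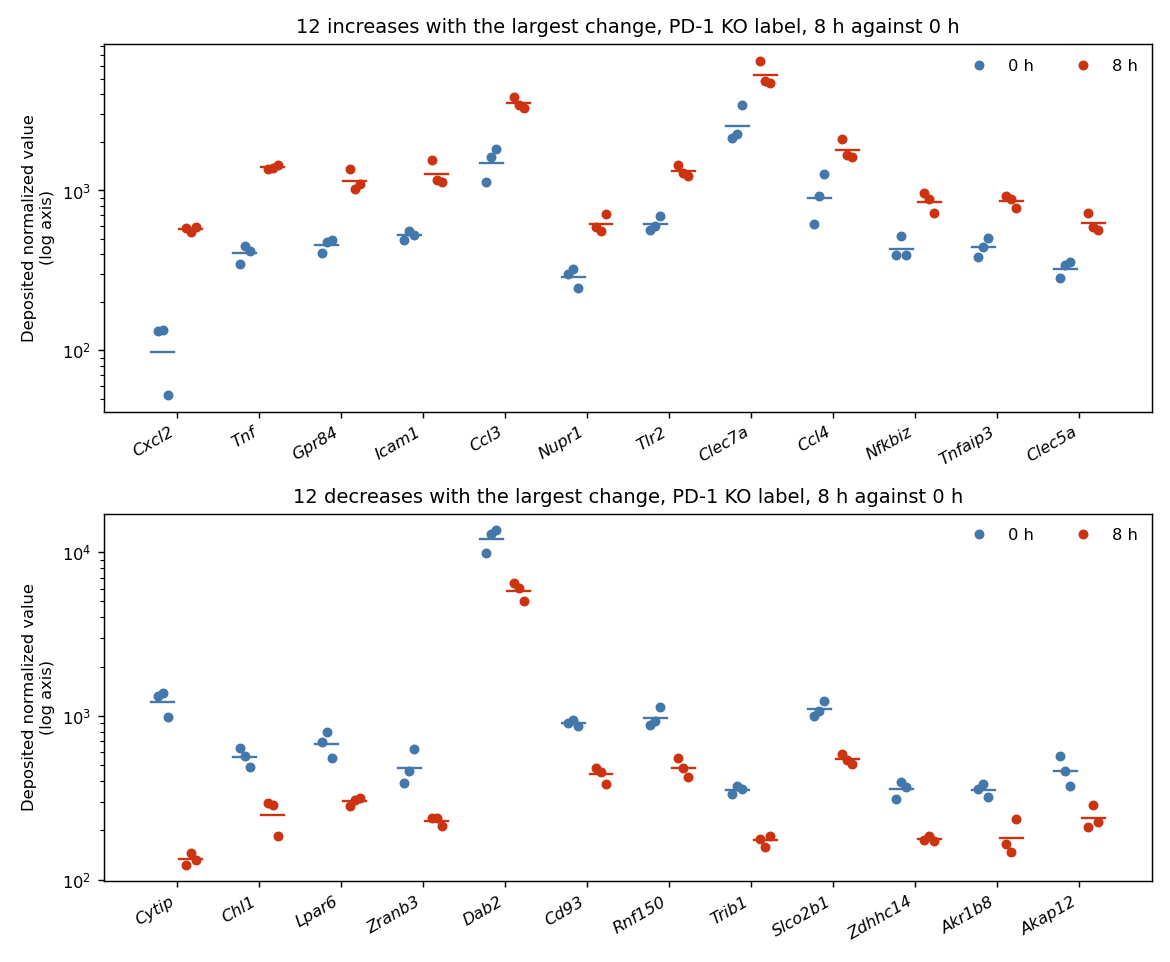
Normalized value (log axis) in each library of the PD-1 KO label at 0 h (blue) and 8 h (red), for the 12 increases and 12 decreases with the largest change among genes above the median level. Horizontal bars are geometric means of 3 libraries, and the 2 times do not overlap for any gene shown.

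Genes of the NF-kB pathway, its feedback inhibitors included, rose at 8 h. Of 21 listed NF-kB pathway genes, all tested, 15 rose and 0 fell, against 1.5% and 1.79% of all genes, and the list's median change was 0.69. This list, like the others, was chosen with earlier results of these data known, so its count is a description and not a test. Of the 15, 14 held the call without each of the 6 libraries in turn, and 14 genes of the list passed without the first 0 h library. With only the compared libraries fitted 12 rose, and the calls of Nfkb1, Nfkbib and Ikbke were lost (adjusted p = 0.161, 0.079 and 0.055). At 2 h Tnfaip2 was the single gene of the list that passed against the same 0 h libraries (49 genes higher, 0.357% of all genes, and 38 lower, 0.277%), and the list's median was then 0.07. That call was kept without the second 0 h library and lost without any other of the 0 h and 2 h libraries (adjusted p up to 0.15). Both times share the 0 h libraries, and 8 h was not tested against 2 h.

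The promoters of Nfkbia and Nfkbie, both of this list, and of the chemokine gene Cxcl2 follow as the 120 bases before the transcript start (RefSeq, GRCm38.p6, gene strand). They are shown because the 3 genes rose and carry a motif that NF-kB dimers are known to bind. Capitals mark every match to GGG, any 3 bases and TTCC, read on either strand (GGAA, any 3 bases and CCC on the other). The first 2 matches in Cxcl2 overlap.
Cxcl2, chr5:90903779-90903898, plus strand: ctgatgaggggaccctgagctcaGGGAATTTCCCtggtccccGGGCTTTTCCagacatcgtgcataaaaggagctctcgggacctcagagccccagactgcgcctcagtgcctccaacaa
Nfkbia, chr12:55492648-55492767, minus strand: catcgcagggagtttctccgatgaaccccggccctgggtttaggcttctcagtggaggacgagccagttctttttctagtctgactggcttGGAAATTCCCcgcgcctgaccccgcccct
Nfkbie, chr17:45555580-45555699, plus strand: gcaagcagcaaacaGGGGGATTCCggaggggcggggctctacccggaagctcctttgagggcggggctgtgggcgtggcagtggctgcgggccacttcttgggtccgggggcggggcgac
Over the 250 bases before the start, the motif stood in 553 of 10901 tested genes with a promoter in the table (5.07%), in 16 of 165 genes that rose (9.70%) and in 10 of 192 that fell (5.21%). Of the 15 NF-kB genes that rose, 11 had a promoter in the table and 5 of those held the motif (45.5%). Over all 21 tested genes of that list, risen or not, the motif stood in 6 of 16 promoters (37.5%). A match is a string of letters, not a measured binding site.

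Among the inhibitors, Nfkbia (IkB-alpha, chr12:55489409-55492647) measured 924, 849 and 866 at 0 h and 1425, 1397 and 1422 at 8 h. Its 3 libraries at 8 h lay within a narrow band well above all of those at 0 h, a change of 0.69 ± 0.11 (adjusted p = 0.00030). Nfkbiz, an atypical nuclear IkB protein, rose from 394, 519 and 394 to 961, 884 and 720.2, by 0.97 ± 0.15. Tnfaip3, the ubiquitin-editing enzyme A20 that switches NF-kB signalling off, rose from 383, 445 and 503 to 926, 884 and 774, by 0.96 ± 0.14 (adjusted p = 5.1e-05). Nfkbie and Nfkbib, further IkB proteins, rose by 0.72 ± 0.14 and 0.66 ± 0.14, and Tnip1, which binds A20, by 0.59 ± 0.10. All 6 encode proteins that restrain the pathway or, in the case of Nfkbiz, modulate it in the nucleus.

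Among the transcription factor subunits, Relb rose by 0.67 ± 0.12, Nfkb2 by 0.63 ± 0.10 and Nfkb1 by 0.37 ± 0.09. The Nfkb1 call was lost without the first 8 h, the second 8 h or the first 0 h library (adjusted p up to 0.071). Rela, which encodes p65, measured 1128, 1314 and 1184 at 0 h and 1357, 1246 and 1413 at 8 h, and the groups overlapped. Rel, Bcl3, Traf1, Tnip3 and the kinase gene Ikbkb did not pass the test either. The related kinase gene Ikbke rose from 797, 892 and 586 to 1133, 1303 and 1299.

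Several known NF-kB target genes of the list rose as well, while Bcl3, Traf1 and Tnip3 of the same list, given above, did not pass. Icam1, an adhesion molecule that binds LFA-1 on leukocytes, measured 489.6, 560.4 and 528 at 0 h and 1546, 1165 and 1133 at 8 h, a change of 1.27 ± 0.11 (adjusted p = 3.4e-08). Sod2, the mitochondrial superoxide dismutase, rose from 1129, 1227 and 1119.7 to 1970.0, 1914 and 1979, by 0.75 ± 0.08. Birc3, an inhibitor of apoptosis protein, rose by 0.82 ± 0.13 and Tnfaip2 by 0.88 ± 0.11. Cd40, the costimulatory receptor of antigen-presenting cells, rose by 1.80 ± 0.28 but at a low level, from 19, 32.7 and 24 to 86, 76.6 and 105.

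**Figure D3:**
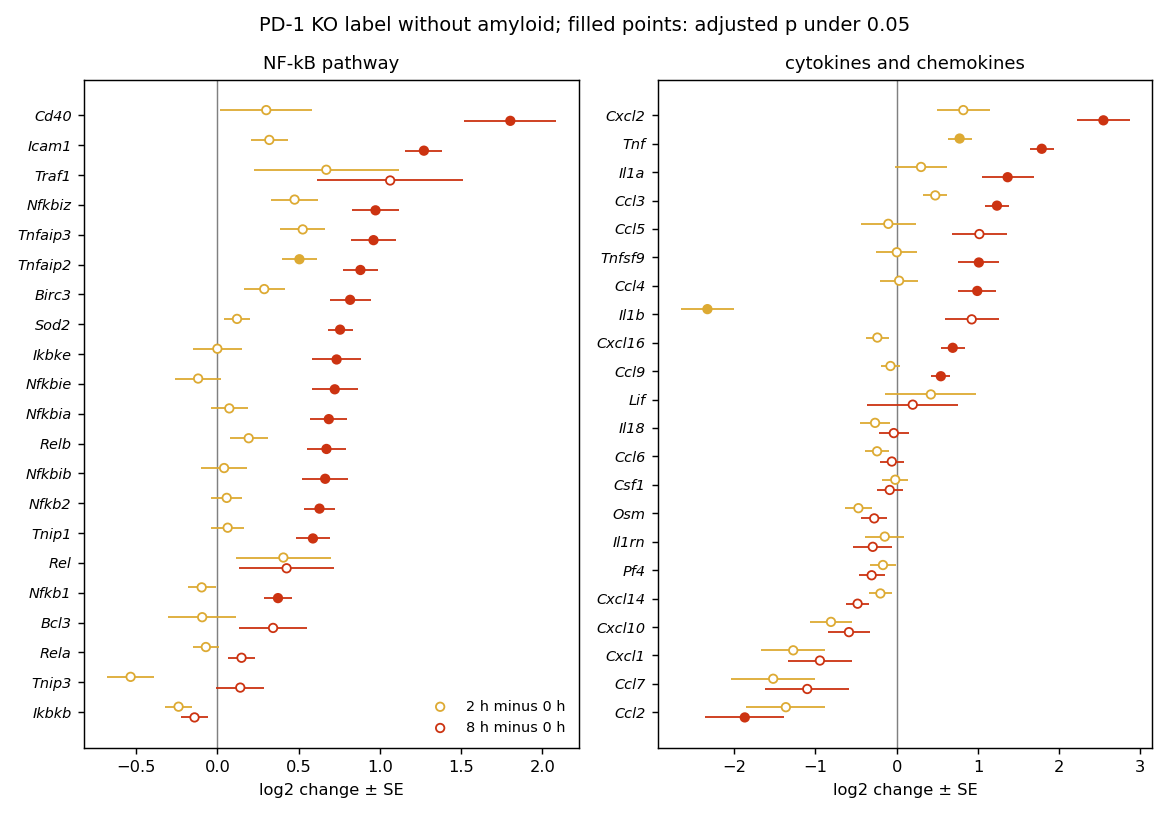
Log2 change ± SE of each NF-kB pathway gene (left) and each cytokine or chemokine (right) in the PD-1 KO label, for 2 h (yellow) and 8 h (red) against the same 0 h libraries, with filled points where the adjusted p passed the threshold. In the NF-kB panel 15 red points and 1 yellow point are filled, and Il1b is the filled yellow point far to the left at 2 h.

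Among chemokines and cytokines more genes passed the threshold as higher than as lower. Of 22 tested, 8 rose and 1 fell, against 1.5% and 1.79% of all genes. Of the changes 11 were positive and 11 negative, and the list's median was 0.08. Without the first 0 h library 6 rose and 0 fell, with a median of 0.30, and with only the compared libraries fitted 4 rose and 1 fell. Cxcl2, a chemokine that draws neutrophils (chr5:90903899-90905938), measured 131, 134 and 52.6 at 0 h and 585, 546 and 589.9 at 8 h. All 3 libraries at 8 h lay far above the highest at 0 h, while the third 0 h library was the lowest of all. The change was 2.54 ± 0.33, or 5.83-fold (adjusted p = 1.2e-05). Tnf (chr17:35199367-35202007), encoding tumour necrosis factor, rose from 349, 452 and 417 to 1354, 1385 and 1442, by 1.78 ± 0.15 (adjusted p = 7.2e-09). Tnf had already passed the test at 2 h, with a change of 0.77 ± 0.15, a call lost without the first 2 h library (adjusted p = 0.058).

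Ccl3, a chemokine that draws monocytes and T cells, rose from 1123, 1628 and 1804 to 3817, 3409 and 3301, by 1.23 ± 0.15. Its neighbour on chromosome 11 and close relative Ccl4 measured 619, 920.2 and 1265 and 2101, 1670.0 and 1616, a change of 0.99 ± 0.23 (adjusted p = 0.012). That call was lost without the first 8 h library (adjusted p = 0.075) or the first 0 h library (adjusted p = 0.079). Ccl9 and Cxcl16, both chemokines made by macrophages, rose by 0.54 ± 0.12 and 0.69 ± 0.15, and the call of Cxcl16 was lost with only the compared libraries fitted (adjusted p = 0.101). Il1a and Tnfsf9 rose at low levels, from 23.8, 32.7 and 18.3 to 65.6, 45.2 and 88.6 and from 21.9, 39.8 and 34.3 to 66.7, 57 and 67.8 respectively. The call of Il1a was lost without the third 8 h or the third 0 h library (adjusted p up to 0.093), and that of Tnfsf9 without the first 8 h, the third 8 h or the first 0 h library (adjusted p up to 0.10).

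Ccl2, the monocyte chemoattractant, was the list's single decrease, from 289.6, 279 and 214 to 60.2, 76.6 and 74.2 (-1.87 ± 0.49, adjusted p = 0.026). The groups did not overlap, and the call was lost when any one of the 6 libraries was left out (adjusted p from 0.052 to 0.10). Ccl7 and Cxcl1 changed by -1.10 ± 0.52 and -0.95 ± 0.39 without passing the test. Il1b, encoding interleukin-1 beta, measured 97.2, 164 and 165 at 0 h and 329, 220.0 and 249 at 8 h, a change of 0.92 ± 0.33 that did not pass (adjusted p = 0.15), while at 2 h it had fallen by 2.33 (adjusted p = 0.00016). With a pseudocount of 10, or by voom on the recovered reads, the 8 h change of Il1b did pass (adjusted p = 0.043 and 0.00098).

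Surface receptors moved in both directions. Of 37 phagocytic receptor and uptake genes, 2 rose and 3 fell, against 1.5% and 1.79% of all genes. The median was -0.10, and all 5 calls held without each library. Without the first 0 h library 2 rose and 5 fell. Tlr2, a receptor for bacterial lipoproteins, rose from 566, 596 and 688 to 1439, 1281 and 1241, by 1.10 ± 0.10 (adjusted p = 4.6e-08). Clec7a, the beta-glucan receptor dectin-1, rose from 2117, 2246 and 3409 to 6479, 4827 and 4729.9, by 1.06 ± 0.13. Both were higher at 8 h in every library. Cd14, the coreceptor for lipopolysaccharide, fell from 5291, 5760.1 and 6414 to 3593, 3096 and 3698 (-0.75 ± 0.13), and it had fallen at 2 h too (-0.67 ± 0.13), a call lost without the third 0 h or the second 2 h library (adjusted p up to 0.075). Cd93, a C-type lectin-like surface glycoprotein, fell from 905, 943 and 865 to 483, 456 and 386 (-1.04 ± 0.13). C5ar1, the receptor for complement fragment C5a, changed by -0.58 ± 0.10 at 8 h and -0.55 ± 0.10 at 2 h, and passed at both times.

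Outside that list, Gpr84, a receptor for medium-chain fatty acids, measured 405, 475 and 494 at 0 h and 1358, 1024 and 1097 at 8 h, a change of 1.33 ± 0.17. Clec5a, a lectin receptor that signals through the adaptor DAP12, rose from 283, 339.9 and 358 to 719, 595 and 563, by 0.93 ± 0.15. Their changes at 2 h were -0.14 ± 0.17 and -0.04 ± 0.15, and neither passed. Of 22 disease-associated microglia genes, 1 rose and 0 fell, against 1.5% and 1.79% of all genes, and the median was -0.01. The increase was Clec7a, which is also in the phagocytic receptor list above. Of 16 homeostatic microglia genes none passed by limma (2 higher and 1 lower at an unadjusted p under 0.05, 0 by voom), with a median of -0.06.

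Several immediate early genes and feedback phosphatases fell. Of 25 tested, 0 rose and 5 fell at 8 h, against 1.5% and 1.79% of all genes. The median was -0.14, and 3 fell with only the compared libraries fitted. At 2 h, 1 had risen and 8 had fallen, against 0.357% and 0.277% of all genes, with a median of -0.34. Fos (chr12:85473890-85477274), a subunit of AP-1, measured 3055, 3358 and 2389 at 0 h, 1018, 1085 and 1097 at 2 h and 1482, 1747 and 1746 at 8 h. It was lowest at 2 h and lay between the 2 levels at 8 h, with changes of -1.45 ± 0.15 and -0.81 ± 0.15. Fosl2, a relative of Fos, changed by -0.90 ± 0.14 at 2 h and -0.74 ± 0.14 at 8 h. Dusp5, a nuclear phosphatase that inactivates ERK, measured 67.6, 96.7 and 62.8 at 0 h and 22.6, 25.5 and 17.1 at 8 h (-1.75 ± 0.27), and -1.76 ± 0.27 was its change at 2 h, where the call was lost with only the compared libraries fitted (adjusted p = 0.0776). Dusp6, the cytoplasmic counterpart, fell by 0.49, a call lost without the third 8 h library (adjusted p = 0.078). Ier3 fell by 0.80, a call lost without the first 8 h library (adjusted p = 0.10) or the second 0 h library (adjusted p = 0.060).

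Other early genes passed the test at 2 h but not at 8 h. Egr1, a zinc finger factor, changed by -0.68 ± 0.11 at 2 h (adjusted p = 0.00066) and 0.06 ± 0.11 at 8 h (adjusted p = 0.86). Nr4a1, an orphan nuclear receptor, changed by -1.55 ± 0.31 and -0.14 ± 0.31, and Dusp1, a phosphatase of p38 and JNK, by -1.13 ± 0.16 and -0.50 ± 0.16. The 2 h call of Nr4a1 was lost without the second 0 h, the first 2 h or the third 2 h library (adjusted p up to 0.11). Whether 2 h and 8 h differed was not tested for these genes.

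**Figure D4:**
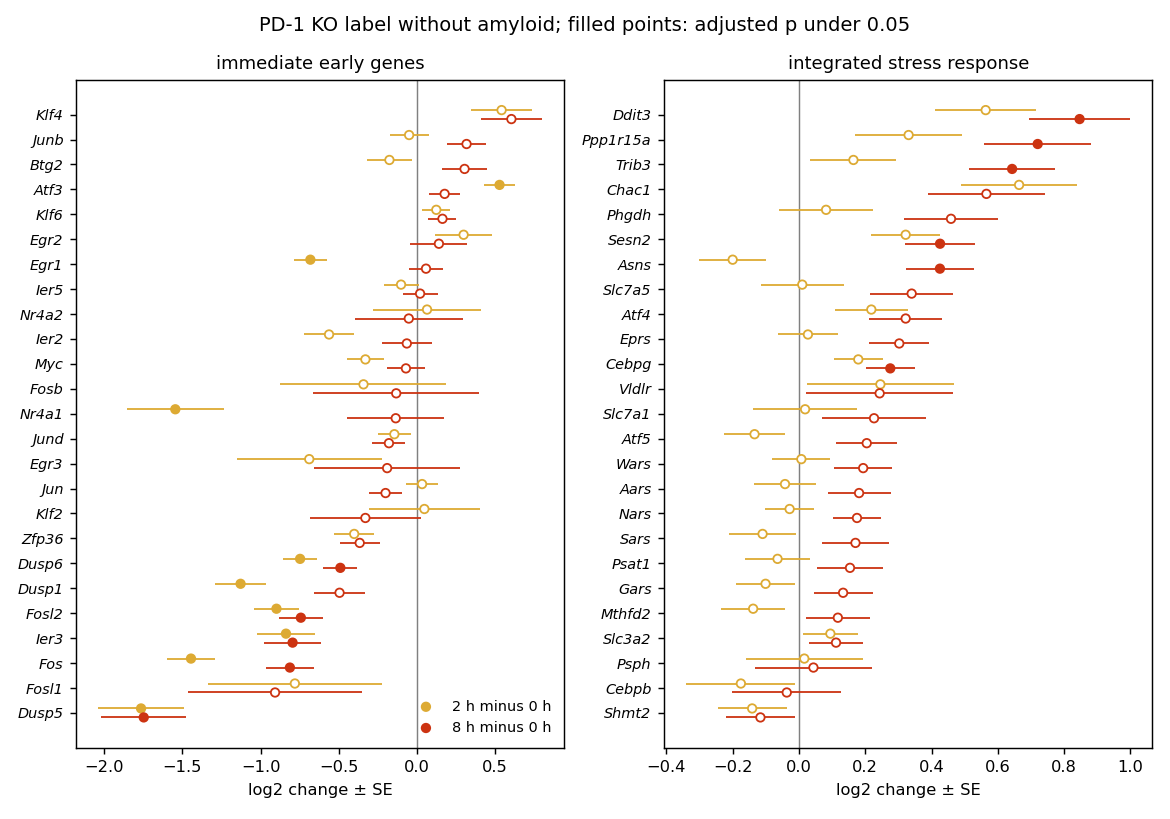
Log2 change ± SE of each immediate early gene (left) and each integrated stress response gene (right) in the PD-1 KO label, for 2 h (yellow) and 8 h (red) against the same 0 h libraries, with filled points where the adjusted p passed the threshold. On the left 5 genes are filled to the left of 0 at 8 h, and on the right 6 are filled to the right of 0.

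Targets of the integrated stress response, the programme that follows phosphorylation of eIF2-alpha, rose in part. Of 25 tested, 6 rose and 0 fell, against 1.5% and 1.79% of all genes. Of the changes 23 were positive, and the median was 0.23. Ddit3, encoding the factor CHOP, measured 980.1, 1071 and 785 at 0 h and 1586, 1548 and 1955 at 8 h, a change of 0.85 ± 0.15 (adjusted p = 0.00087). Trib3, a pseudokinase induced by CHOP and ATF4, rose from 809.6, 819 and 728 to 1119, 1151 and 1429, by 0.64 ± 0.13. The calls of Ddit3 and Trib3 held without each library. Those of Ppp1r15a (0.72 ± 0.16), Asns (0.43 ± 0.10), Sesn2 (0.43 ± 0.11) and Cebpg (0.28 ± 0.07) did not. Ppp1r15a was lost without the third 8 h or the third 0 h library (adjusted p up to 0.092), Asns without the first 8 h, the third 8 h or the first 0 h library (up to 0.071), and Sesn2 without any but the third 8 h and the second 0 h library (up to 0.089). Cebpg was lost without each of the 6 (adjusted p up to 0.11). Without the first 0 h library, or without the third, 3 of the 25 passed, and 2 passed with only the compared libraries fitted. Nupr1, a small stress-induced nuclear protein, rose from 299, 321 and 245 to 590.4, 556 and 715, by 1.10 ± 0.14.

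Genes of endoplasmic reticulum chaperones and the unfolded protein response gave calls in both directions. Of 21 tested, 1 rose and 2 fell, against 1.5% and 1.79% of all genes. Of the changes 17 were negative, and the median was -0.18. The increase was Herpud1, a component of endoplasmic reticulum degradation, from 224, 303 and 276 to 455, 422 and 466 (0.75 ± 0.14). The lectin chaperone Calr fell from 6303, 6766 and 8583 to 5509, 4747 and 4959 (-0.50 ± 0.10), a call lost with only the compared libraries fitted (adjusted p = 0.146). Hyou1 fell by 0.35, a call that, of the 6 fits leaving out a library, was kept in that without the second 8 h library (adjusted p up to 0.19). Among 21 NRF2 targets, Sqstm1, the autophagy receptor p62, rose from 18572, 20005 and 18319 to 32084, 30802 and 33063 (0.75 ± 0.12). Txnrd1 rose by 0.29 ± 0.08, a call kept without the first 0 h library and lost without any other (adjusted p up to 0.19).

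Cytip (chr2:58129139-58195549) gave the largest decrease above the median level. It encodes a cytohesin-binding protein that tunes leukocyte adhesion. Its values were 1328, 1381 and 986 at 0 h, 238, 315 and 348 at 2 h and 124, 145 and 131 at 8 h. Every 2 h library lay below every 0 h library, and every 8 h library below every 2 h library. The change was -3.18 ± 0.21 at 8 h, or 9.09-fold lower (adjusted p = 8.4e-11), and -2.03 ± 0.21 at 2 h (adjusted p = 9.1e-07).

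The other large decreases were of varied function. Dab2, an endocytic adaptor, fell from 9878, 12959.5 and 13609.9 at 0 h to 6448, 6037 and 5024 at 8 h (-1.05 ± 0.13). Slco2b1, an organic anion transporter, fell from 992, 1075 and 1236 to 585, 540.3 and 507 (-1.01 ± 0.14). Lpar6, a receptor for lysophosphatidic acid, fell from 689, 799 and 552 to 281, 308 and 315 (-1.16 ± 0.14), after a decrease of 0.75 at 2 h, a call lost without the second 0 h library (adjusted p = 0.063). Trib1, a pseudokinase, was lower at 2 h (-1.63 ± 0.15) and at 8 h (-1.02 ± 0.15), where it measured 177, 159 and 186 against 331, 371 and 356 at 0 h.

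The palmitoyltransferase gene Zdhhc14 fell by 1.01, the RING finger gene Rnf150 by 1.02, the annealing helicase gene Zranb3 by 1.06 and the aldo-keto reductase gene Akr1b8 by 0.98. Chl1, a neural cell adhesion molecule, fell from 633, 569 and 487 to 294, 287 and 184 (-1.16 ± 0.30), and Akap12, a scaffold for protein kinase A, from 568, 461 and 375 to 209, 287 and 225 (-0.95 ± 0.24). Both calls were lost without the third 8 h, the first 0 h or the second 0 h library, and that of Akap12 also without the first 8 h library (adjusted p up to 0.15 and 0.097). Among cell type markers, the neuronal tubulin gene Tubb3 fell from 180.0, 228 and 189 to 104, 60.9 and 89.7 (-1.24 ± 0.20) and the oligodendrocyte lineage factor Olig2 from 389, 399.7 and 356 to 203, 193 and 203 (-0.93 ± 0.21). Each was the single call of its list. Of the 11 oligodendrocyte lineage changes 6 were positive (median 0.10), and of the 8 neuronal ones 2 were (median -0.58). The sums over 8 neuronal markers ran from 1172 to 1653 at 0 h and from 1130 to 1378 at 8 h, and those over 11 oligodendrocyte lineage markers from 8964 to 10829 and from 9408 to 10067, so that neither sum separated the times. The part of these cells in the decreases was not tested.

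Some adhesion genes fell. Of 28 actin cytoskeleton and adhesion genes, 1 rose and 6 fell, against 1.5% and 1.79% of all genes, and the median was -0.18. Itgb3, the beta-3 integrin subunit, measured 357, 478 and 532 at 0 h and 274, 218 and 226 at 8 h (-0.91 ± 0.13, adjusted p = 3.8e-05). Itga6 and Actn1, encoding the alpha-6 integrin subunit and alpha-actinin-1, fell by 0.66 and 0.40, and the calls of these 3 genes held without each library. With only the compared libraries fitted, the calls of Itga6 and Actn1 were lost (adjusted p = 0.0745 and 0.0922), and the list held 0 higher and 1 lower. The other 4 calls, Itgav, Actg1, Fscn1 and Marcksl1, were each lost without at least 4 of the 6 libraries, with adjusted p up to 0.24, 0.22, 0.24 and 0.20. Without the first 0 h library the list's counts were 0 higher and 6 lower, and without the third 1 higher and 3 lower.

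DNA replication genes had negative changes throughout. Of 24 tested, all changes were negative and the median was -0.36. Of them 3 passed, where 1.79% of all genes passed as lower. At 2 h none passed by limma (1 higher and 1 lower at an unadjusted p under 0.05, 0 by voom), with a median of 0.04. Mcm5, a subunit of the replicative helicase, fell from 159, 128 and 174 to 81.7, 45.2 and 92.4 (-1.11 ± 0.21), and Pold1, the catalytic subunit of DNA polymerase delta, from 155, 188 and 186 to 100.0, 90.4 and 119 (-0.77 ± 0.13). Mcm6 fell by 0.60, a call lost without the first 8 h library (adjusted p = 0.11) or the third 0 h library (adjusted p = 0.083). With only the compared libraries fitted no DNA replication gene passed (adjusted p = 0.101 for Mcm5 and 0.0745 for Pold1), while in the limma fit over all libraries 0 were higher and 10 lower at an unadjusted p under 0.05, and by voom 3 were lower. Of 24 mitosis genes none passed by limma (0 higher and 4 lower at an unadjusted p under 0.05, 0 by voom), with a median of -0.28.

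Cholesterol synthesis genes, the targets of SREBP2, gave 3 decreases. Of 24 tested, 22 changes were negative, and the median was -0.23. All 3 calls were lower, where 1.79% of all genes passed as lower. Among them were Lss, the cyclase that forms lanosterol, from 291, 240.4 and 284 to 211, 226 and 170.3 (-0.43 ± 0.12), and Dhcr7, a reductase late in the pathway, from 279, 343 and 332 to 235, 226 and 247 (-0.42 ± 0.11). Both calls were lost without 4 of the 6 libraries, the first 8 h, the third 8 h, the first 0 h and the third 0 h for Lss, and the first 8 h, the second 8 h, the second 0 h and the third 0 h for Dhcr7 (adjusted p up to 0.24 and 0.15), and without the first 0 h library 1 of the 24 was higher and 1 lower.

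Interferon-stimulated genes showed no common direction that held. Of 33 tested, 2 rose and 1 fell, against 1.5% and 1.79% of all genes. The median was -0.22, and it ran from -0.30 to 0.01 over the alternative fits. Without the first 0 h library 1 rose and 4 fell, and without the third 3 rose and 0 fell, with the median of 0.01. Irf1, an interferon regulatory factor, rose from 239, 233 and 262 to 413, 352 and 335 (0.58 ± 0.14), a call lost without the first 8 h library (adjusted p = 0.11) or the second 0 h library (adjusted p = 0.091). Rsad2, encoding the antiviral enzyme viperin, measured 33.3, 45.5 and 192 at 0 h and 209.7, 202 and 204 at 8 h (1.61 ± 0.40, adjusted p = 0.019). The third 0 h library, which also had the highest interferon sum, was close to the 8 h level, and without any one of the other 5 libraries the call was lost (adjusted p up to 0.14). Without the third 0 h library itself the adjusted p was 4.5e-05. Oasl2, an oligoadenylate synthetase-like gene, measured 229.5, 300.1 and 479 and 206, 153 and 179 (-0.84 ± 0.24), with the highest value in the third 0 h library, and the call was kept without the first 0 h library and lost without any other (adjusted p without the third 0 h library = 0.35).

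Among checkpoint genes, Cd274, which encodes PD-L1, rose from 329, 324 and 245 to 483, 456 and 441 (0.63 ± 0.13, adjusted p = 0.0030) and had also passed at 2 h (0.80 ± 0.13). Both calls were lost with only the compared libraries fitted (adjusted p = 0.0698 at 8 h and 0.0558 at 2 h). Havcr2, which encodes the inhibitory receptor TIM-3, fell from 835, 1148 and 1131 to 744, 699 and 613 (-0.59 ± 0.14), a call lost without the third 8 h, the second 0 h or the third 0 h library (adjusted p up to 0.096). The change of Pdcd1 was 1.06 ± 0.41 and did not pass (adjusted p = 0.20), although its 3 values at 8 h lay above its 3 at 0 h. The other 7 of the 10 tested checkpoint genes did not pass.

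Several large or housekeeping lists held no call in either direction by limma. These were 80 cytosolic ribosomal proteins (median 0.02), 75 oxidative phosphorylation subunits (-0.03) and 11 listed MHC class I genes (-0.04), with 0 at an unadjusted p under 0.05 and 0 by voom in each. MHC class I genes outside the 11 did pass by limma. H2-Q4 rose by 0.45 ± 0.12 (adjusted p = 0.028) and H2-M2, at a low level, by 2.03 ± 0.38 (adjusted p = 0.0015). For 31 lysosome genes (median -0.00) and 13 LXR targets (0.05), 1 higher and 1 lower, and 1 higher and 0 lower, passed an unadjusted p under 0.05, and 0 passed by voom. Near-identical copies make single ribosomal protein genes uncertain.

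WT libraries, which the comparison above does not use, gave the same times without the PD-1 KO label. There, 830 genes passed (6.05%), 411 higher (3%) and 419 lower (3.05%), with the same split of title numbers between 0 h and 8 h. Of the genes called in the PD-1 KO label, 175 were called in WT with the same sign, which is 38.7% of the 452 and 21.1% of the 830. Of the 206 increases 118 were also called higher in WT (57.3%), and of the 246 decreases 57 were also called lower (23.2%). In sign alone, 89.6% of the 452 went as in WT, against 60.05% of all genes tested. Across all genes tested, Pearson's r between the 2 changes was 0.29 and Spearman's rho 0.27, where genes are not independent replicates.

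The NF-kB list gave equal counts in WT, with 15 of 21 higher and 0 lower in WT and a median of 0.82. Cxcl2 rose in WT by 2.97 ± 0.33 and Tnf by 1.69 ± 0.15, and the difference between labels did not pass for either (adjusted p = 0.81 and 0.93). Their levels differed all the same: Cxcl2 measured 121, 125 and 145 in WT at 8 h, below each of the PD-1 KO libraries at that time. Of the 24 mitosis genes, 18 fell in WT, with a median of -1.14, and of the 33 interferon-stimulated genes 9 rose, with a median of 0.31. The test of the difference between labels passed by limma for 1 of the 33 listed interferon genes, Ifi27l2a, against 0.27% of all genes. Interferon-related genes outside this list, Cxcl10 and Gbp5 among them, passed as well, with more negative changes in the PD-1 KO label. Of the 33 differences 26 were negative, with a median of -0.49. At an unadjusted p under 0.05, 0 were positive and 10 negative, and by voom 0 passed. For the 24 mitosis genes none passed by limma (15 positive and 0 negative at an unadjusted p under 0.05, 0 by voom).

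That difference, the 8 h change in the PD-1 KO label minus that in WT, passed for 37 genes (0.27%), 8 with a more positive change in the PD-1 KO label (0.0583%) and 29 with a more negative one (0.211%). Slco2b1 fell in the PD-1 KO label and measured 617, 593 and 618 at 0 h and 678, 703 and 885 at 8 h in WT, a difference of -1.31 ± 0.19 (adjusted p = 0.0015). Il21r, a cytokine receptor gene, measured 299, 326 and 340.5 and 333, 334 and 323 in the PD-1 KO label and 128, 111 and 112 and 246, 268 and 336 in WT, a difference of -1.22 ± 0.17. The WT level at 8 h thus came up towards that of the PD-1 KO label, which had been above it at 0 h. Both differences passed in all 23 alternative fits, as did that of Tnip3. Of the 14 differences named in all, 10 did not pass by voom.

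Cytip fell in both labels, by 3.18 and 1.74, to levels of 124, 145 and 131 and 148, 128 and 170.5 at 8 h. Its 0 h level was higher in the PD-1 KO label (1328, 1381 and 986) than in WT (322, 609 and 619.7), and the difference of the changes was -1.45 ± 0.29 (adjusted p = 0.024). The test of that difference was lost without the first 8 h or second 0 h library of the PD-1 KO label or the first 8 h, the third 8 h or the first 0 h library of WT (adjusted p up to 0.093), by voom (0.0906) and with only the compared groups fitted (0.109). Vegfa, the angiogenic growth factor, measured 467, 447 and 225 and 222, 202 and 181 against 193, 228 and 226 and 289, 266 and 323 in WT, a difference of -1.28 ± 0.28 (adjusted p = 0.037). The third 0 h library of the PD-1 KO label lay at the 8 h level, and of the 12 fits that leave out a library the difference passed in those without that library or without the second 8 h library of WT (adjusted p up to 0.16 in the others, and 0.0945 by voom).

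Within the NF-kB list, 12 of the 21 differences between labels were negative. By limma 3 of the 21 passed, all as more negative in the PD-1 KO label, where 0.211% of all genes did. By voom 1 of the list passed, also as negative. The 3 genes were Ikbke (-1.11 ± 0.21), Bcl3, an IkB family member (-1.55 ± 0.29), and Tnip3, an A20-binding protein (-1.20 ± 0.21). Each started higher in the PD-1 KO label: Ikbke measured 159.9, 215 and 177 in WT at 0 h, and Tnip3 134, 193 and 129 there against 887, 1088 and 1129 in the PD-1 KO label. Bcl3 measured 30.1, 53.3 and 39.7 in WT and 111, 146 and 104 in the PD-1 KO label at 0 h. The tests of Ikbke and Bcl3 were lost without the second 0 h library of the PD-1 KO label or the third 8 h or first 0 h library of WT (adjusted p up to 0.077 for both), by voom (0.0681 and 0.161) and with only the compared groups fitted (0.109 for both). Cxcl10, an interferon-induced chemokine, measured 149, 156 and 168 and 104, 84.5 and 129 in the PD-1 KO label and 14.4, 18.5 and 11.6 and 52.4, 36.1 and 37.6 in WT, a difference of -2.04 ± 0.36 that did not pass by voom (adjusted p = 0.11). Acta2, smooth muscle actin and one of the listed fibroblast and vascular markers, fell in WT (-1.62 ± 0.24) and changed by -0.03 ± 0.24 in the PD-1 KO label, where the third 8 h library stood high (537, 741 and 1319). That difference was lost without any of the 12 libraries but 3, the first 8 h and first 0 h of the PD-1 KO label and the third 0 h of WT (adjusted p up to 0.12), and it did not pass by voom (0.0799). Kif3a, a kinesin needed for cilia, changed by -0.43 ± 0.08 in WT and 0.17 ± 0.08 in the PD-1 KO label, a difference lost without the first 8 h or second 0 h library of the PD-1 KO label or the first 8 h, second 8 h or first 0 h library of WT (adjusted p up to 0.062).

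The 2 labels also differed in other cell types. In WT the ependymal sum ran from 220 to 515 at 0 h and from 263 to 628 at 8 h, and the astrocyte sum from 3303 to 4841 and from 2422 to 4030, below every PD-1 KO library. The fibroblast and vascular sum ran from 972 to 1457 at 0 h and from 396 to 522 at 8 h in WT, and from 943 to 1524 and from 937 to 1754 in the PD-1 KO label. The part of these cells in the differences between labels was not tested.

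**Figure D5:**
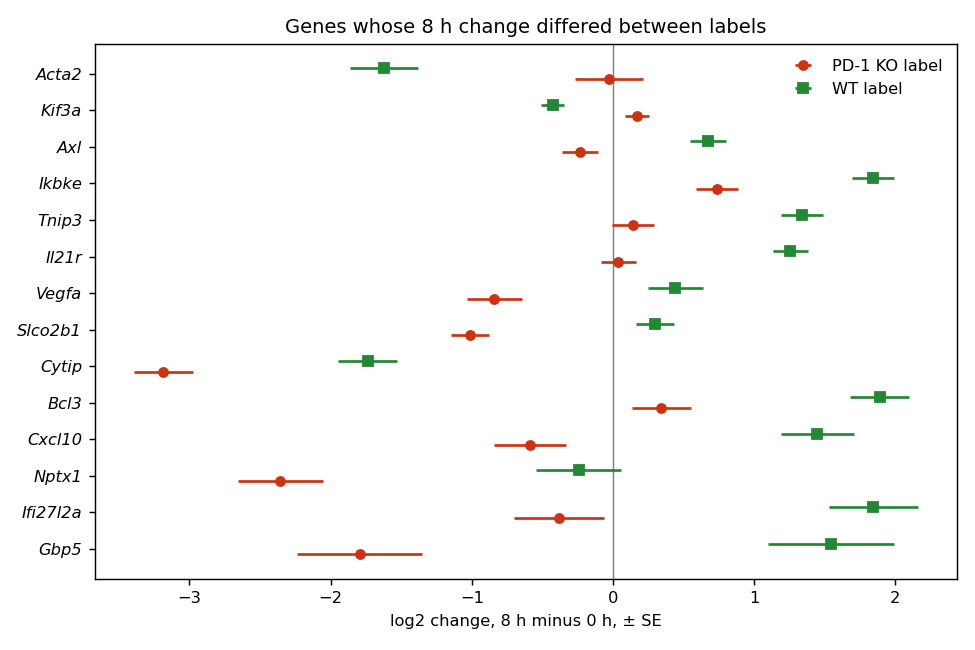
Log2 change from 0 h to 8 h ± SE in the PD-1 KO label (red circles) and in WT (green squares), for 14 named genes whose change differed between the labels by the limma test of the difference. For 12 genes the red point lies to the left of the green square, with Acta2 and Kif3a as the exceptions.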

How the data were processed

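RNA libraries were made with a TruSeq kit, per the labels. The counting program, its annotation and its strand setting are not given in the sources used here. HISAT 0.1.5, R 3.0.2, Partek 6.6 and DESeq2 are listed, with mm10 as the build and no roles, per the submitters' processing notes. The deposited signal values are scaled counts per gene, with 1 size factor for each library and a lowest value of 1, both set by the authors. In every library 100% of values up to 5000 reads were whole multiples of 1 step, within 0.05 reads. Log2 of value plus a pseudocount of 1 was fitted with limma 3.58.1 in R 4.3.3, with 1 mean per group over all 30 libraries, 20 residual degrees of freedom, an intensity trend and Benjamini-Hochberg adjustment within each comparison at 0.05. Genes reaching 10 in at least 3 libraries were tested, 13722 of 13788. The method was tested on simulated data with planted changes between the compared groups. The simulation held no effect of the number series between them and no library that stood apart, so it does not cover these. Fold changes on this scale understate the change of low genes. Without strand, reads of overlapping genes cannot be told apart.

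Genes were named by a fixed rule, which took the 12 largest increases and 12 largest decreases past the threshold, without overlap of the libraries and above the median level, the 5 largest differences between labels of each sign under the same level condition, Pdcd1 and any list member. Some results that the rule selects are not reported here. The members and lists were chosen with earlier results of these data known. Promoters came from RefSeq (GRCm38.p6). Alternatives covered the pseudocount, filter, normalization, trend, weights, voom on recovered reads, the libraries fitted and leaving out each library.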

Additional observations from a re-analysis of the deposited data

Results flagged for a closer look

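For 14 named genes the change from 0 h to 8 h differed between the PD-1 KO label and WT by the limma test of the difference itself, 3 against 3 libraries in each label. The more positive changes in the PD-1 KO label were those of Acta2 (1.59) and Kif3a (0.60). Gbp5, a guanylate-binding protein of the interferon response with close paralogs, showed the largest of the 14 differences (-3.34, adjusted p = 0.018): it fell from 96.2, 131 and 126 to 25.8, 35.4 and 39 in the PD-1 KO label and measured 2.62, 4.1 and 4.96 and 26.2, 10.8 and 7.52 in WT. It was 1 of 2 genes called in opposite directions in the 2 labels, with Gdpd5 the other, and both were chosen after their values were seen. Interferon-stimulated Ifi27l2a (-2.23) and Cxcl10 (-2.04) also had more negative changes in the PD-1 KO label. Nptx1, encoding neuronal pentraxin 1 and likewise chosen after its values were seen, differed by -2.11, with 241, 283 and 168 at 0 h and 37.6, 49.1 and 43.8 at 8 h in the PD-1 KO label. The NF-kB pathway genes Bcl3, Tnip3 and Ikbke differed by -1.55, -1.20 and -1.11. Among receptors and transporters the differences were -1.31 for Slco2b1, -1.22 for Il21r and -0.91 for Axl, a receptor tyrosine kinase that binds apoptotic cells through Gas6. Cytip and Vegfa differed by -1.45 and -1.28. Of the 14, 3 passed in all alternative fits, and by voom the differences of Gbp5, Ifi27l2a, Nptx1 and Axl, among others, did not pass (adjusted p = 0.197, 0.164, 0.0945 and 0.0532). Leaving out the second 0 h library of the PD-1 KO label ended 9 of the calls, among them Gbp5 (adjusted p = 0.062), Ifi27l2a (0.064) and Nptx1 (0.094), and Axl was lost without the third 0 h library of that label (0.057) or the third 8 h (0.076) or first 0 h library of WT (0.071).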

How the results depend on the processing

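No paired analysis was possible because the labels give the libraries no replicate numbers shared between groups. The 93 genes followed in the 8 h comparison were almost all chosen because they had passed in these same data. Their behaviour in the alternative fits is thus a description and not a test. None of the 93 changed sign past the threshold in any alternative fit, and 49 kept their side of the threshold in all fits. Medians of several lists near 0 did cross it, among them the interferon list (-0.30 to 0.01), the homeostatic microglia list (-0.10 to 0.13) and MHC class I (-0.15 to 0.13). The counts of genes higher and lower at 8 h became 76 and 81 with only the groups compared fitted and 556 and 549 with array weights, and 372 were lower with quantile normalization. Of the 452 calls, 150 were shared with the first of these and 440 with the second. For 2 h the counts became 22 and 23, and 390 and 294, under the same 2 settings. For WT they became 250 and 190, 905 and 890, and 223 and 227 by voom. For the difference between labels they became 2 and 8, 91 and 161, and 2 and 7 by voom, with 5 higher at a filter of 50. Leaving out 1 library gave 125 to 343 higher and 128 to 262 lower at 8 h, 19 to 56 and 21 to 47 at 2 h, 219 to 331 and 178 to 386 in WT, and 0 to 27 and 9 to 40 for the difference between labels. The 0 came without the second 0 h library of the PD-1 KO label, where 519 genes were higher at an unadjusted p under 0.05. Of the 8 h calls, 45.6% were higher, and 56.7% without the first 0 h library. Depth limits low genes: the shallowest of the 6 libraries held 4883749 reads.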

Other observations

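Some of the largest changes lay below the level at which genes were named above, and the genes here were chosen after their values were seen. Irg1, the gene of the itaconate-producing enzyme of activated macrophages, measured 12.4, 21.3 and 10.3 at 0 h and 305, 238 and 267 at 8 h (4.17 ± 0.31, adjusted p = 8.1e-10 by limma), and 3.93, 6.15 and 1.65 and 68.8, 66.9 and 72.7 in WT. The 8 h libraries were higher in both labels. Hcar2, the receptor for niacin and beta-hydroxybutyrate, rose from 16.2, 15.6 and 25.1 to 166, 106 and 88.6 (2.58 ± 0.31), and Cd69, an early activation marker of leukocytes, from 21, 15.6 and 28.6 to 276, 153 and 171 (3.14 ± 0.41). Their calls held in all 18 alternative fits. Ptger4, a prostaglandin E2 receptor, had risen by 1.04 at 2 h and by 0.79 at 8 h.

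In the amyloid-beta groups of the PD-1 KO label, whose libraries enter no comparison here beyond the shared estimate of the spread, Cxcl2 measured 209, 245 and 461 at 2 h and 969.9, 818 and 828 at 8 h. Tnf measured 1485, 1210.0 and 1429 and Cytip 174, 136 and 146 at 8 h with amyloid-beta.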
